A study of Macaca mulatta with 10 samples.

Results

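Transcript assembly of juvenile rhesus macaque testis produced 1238 spliced loci that carry no gene name. They were chosen from the deposited count table as loci without a name whose transcript models include at least 1 transcript with 2 or more exons. They make up 4.62% of the 26813 loci in the table and 15.2% of its 8161 unannotated loci. The other 6923 unannotated loci have single-exon models only, and 18652 loci are named. The models hold 2497 unnamed spliced loci in all. The count table holds only loci at a level of 1 CPM (counts scaled to library size) or more in at least 3 libraries, so the weaker models were not analysed here.

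The study profiled the right testis of 10 wild-type juvenile males by stranded total RNA sequencing, with 1 library per animal. Animals TP07, TP09 and TP11, aged 24, 14 and 15 months, received vehicle for a time not given in the sources used here. Animals TP08, TP10 and TP12, aged 22, 14 and 15 months, received pulsatile infusion of the gonadotropins FSH and LH for 48 h. Animals TP15 to TP18, all aged 14 months, received it for 96 h. The 96 h animals carry the highest numbers, so a batch that follows animal number cannot be told apart from the 96 h group. Each testis is a mixture of Sertoli, Leydig, peritubular and germ cells.

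Before puberty the primate testis holds Sertoli cells and undifferentiated spermatogonia and makes little androgen. FSH acts on Sertoli cells and LH on Leydig cells, and together they start the steps that lead spermatogonia to differentiate. Testis is known for transcribing many long noncoding RNAs, several of which host microRNAs or start beside a coding gene on the opposite strand (divergent transcription). A spliced locus without a name can be such a noncoding RNA, a coding gene missing from the annotation, or a fragment of a longer transcript.

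Libraries held 21824233 to 30375928 counts, at which 3 counts correspond to 0.0988 to 0.138 CPM. All 9 testis markers checked were measured. Of 16 markers of other cell types, 9 were measured, with summed levels of 141 to 270 CPM in vehicle, 162 to 307 CPM at 48 h and 290 to 545 CPM at 96 h. Levels below are CPM with TMM-scaled library sizes unless a share of counts is given. Differences are log2 fold changes with their SE from edgeR's quasi-likelihood test, adjusted over all 26813 loci by Benjamini-Hochberg. A locus is said to rise or fall where the adjusted p was at most 0.05.

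Most of the spliced unannotated loci had short exon chains and low counts. The largest transcript had 2 exons in 699 loci (56.5%), 3 to 5 in 428, 6 to 10 in 97 and more than 10 in 14. Every transcript was spliced in 516 loci, and 722 also had a single-exon transcript. The shortest intron was under 50 bases in 3. They lay on the plus strand in 604 cases and on the minus strand in 634. Median exonic length was 3901 bases (interquartile range 2318 to 6727), against 3266 for single-exon unannotated loci, 4081 for named loci and 2957 for named loci annotated as lncRNA. Exonic length exceeded 10 kb in 182.

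The median level was 2.14 CPM (interquartile range 1.25 to 4.48), against 1.47 for single-exon loci, 18.8 for named loci and 2.36 for named lncRNA loci. Per kb of exon the medians were 0.575, 0.465, 4.17 and 0.935 CPM in the same order. The level was under 2 CPM in 582 loci and at least 10 CPM in 147, and 1223 had at least 1 count in every library. The median SD between animals of 1 group was 0.328 on the log2 scale, against 0.210 for all named loci. Over the interquartile range of the levels of the spliced loci it was 0.328 for them and 0.306 for the named loci in that range. Unplaced scaffolds held 85 of these loci (6.87%, against 4.04% of all loci), chromosome 19 held 26 (2.1% against 4.87%) and chromosome 5 held 82 (6.62% against 4.15%). The X and Y chromosomes held 44 and 5.

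**Figure D1:**
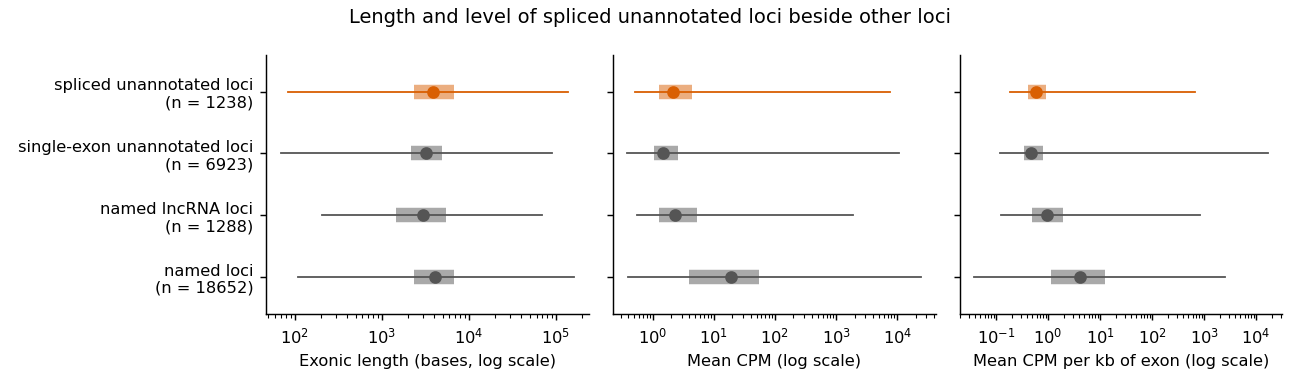
Exonic length (bases), mean level (CPM) and mean level per kb of exon, each on a log scale, of the spliced unannotated loci beside single-exon unannotated loci, named lncRNA loci and all named loci, with dots at the median, thick bars over the interquartile range and thin lines from the lowest to the highest locus. The spliced loci lie close to named loci in length (median 3901 against 4081 bases) and lie below them in level (median 0.575 against 4.17 CPM per kb).

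A few loci carried much of the signal. XLOC_048624, with 6 exons, was the strongest at 7771, 9016 and 8419 CPM in the vehicle animals, 6538, 7759 and 5685 at 48 h and 8260, 7333, 9144 and 6532 at 96 h. It took 0.890% of all counts in vehicle, 0.666% at 48 h and 0.745% at 96 h, with SDs of 0.0673, 0.0987 and 0.0772 (n = 3, 3 and 4). The 48 h libraries lay just below the vehicle ones and the 96 h libraries overlapped them, and neither comparison with vehicle passed the test (-0.34, adjusted p = 0.186, and -0.10, adjusted p = 0.644). Among the other loci with over 100 CPM, XLOC_040376 next to GRIP1 had the longest exons of all, 137374 bases, and measured 256, 225 and 201 CPM in the vehicle animals, 200.4, 166 and 175 at 48 h and 161, 321, 255 and 192 at 96 h. XLOC_025024 next to MSX2 measured 256, 269 and 212 CPM in the vehicle animals, 129, 168 and 143 at 48 h and 161, 133, 104 and 110.4 at 96 h. Every vehicle library lay above every treated one there. It fell by 0.75 (SE 0.17, adjusted p = 0.0148) at 48 h and by 0.95 (SE 0.15, adjusted p = 0.00281) at 96 h. The 48 h call was lost without TP08, TP09 or TP12, and without TP07 and TP08 together.

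Some of the loci lie where the T2T-MMU8v2.0 reference places a coding gene that the deposited models do not name. Between the nearest named genes that the reference also holds, 1133 loci could be placed. At least 1 reference gene lay between the same flanks for 814 of them, and none for 319. A protein-coding gene lay there for 316. At least 1 lncRNA gene and no coding gene lay there for 405, in some cases with other noncoding genes. For 65 loci the interval held a coding symbol absent from the names of the models, and 40 of these 65 had 3 or more exons. A shared interval does not show that the locus is that gene, and a gene renamed since the annotation counts as absent unless the reference lists its older symbol. The 65, and the shares called among them below, can therefore hold genes that the models do name. XLOC_015880, described below, is 1 of the 65 through the symbol AFG1L, while the models name the gene it overlaps LACE1. The authors' second deposited table gives a symbol to 10 of the loci. Of the 9 that could be placed, 7 have that symbol between the same flanks.

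Of the 5 loci with the most exons in 1 transcript, 4 were of this kind. XLOC_006556 (rheMac8 chr2:93856170-93887875), with 117 exons, lies between UQCRC1 and UCN2, where the reference has COL7A1, the collagen of anchoring fibrils. It measured 18.5, 41.5 and 29.7 CPM in the vehicle animals, 12.8, 23.3 and 10.6 at 48 h and 37.7, 20.3, 40.8 and 24.1 at 96 h, and the groups overlapped. XLOC_059671 (chr18:60057603-60251452), with 49 exons, lies between CD226 and SOCS6 at RTTN, a centriole protein. It measured 165, 135 and 139 CPM in the vehicle animals, 149.7, 129 and 136 at 48 h and 132, 159, 151 and 139 at 96 h, with no group apart from the others. XLOC_035081, with 23 exons, lies at COL17A1, a hemidesmosome collagen, and measured 6.87, 6.59 and 8.43 CPM in the vehicle animals, 9.07, 6.06 and 9.51 at 48 h and 7.46, 5.90, 6.07 and 5.72 at 96 h. Its groups overlapped as well. XLOC_005850, with 19 exons, lies at BBX, an HMG-box protein, and measured 486, 440.0 and 487 CPM in the vehicle animals, 581, 462 and 523 at 48 h and 442, 643, 537 and 586 at 96 h. None of these 4 loci passed the test in any of the 3 comparisons. The authors' second table gives these 4 loci the same symbols, COL7A1, RTTN, COL17A1 and BBX. XLOC_009775, with 21 exons, could not be placed between flanks and is named RUBCN, a regulator of autophagy, in the authors' second table, and its level stayed between 18.5 and 29.7 CPM in all libraries.

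Of the 65 loci beside such a coding gene, 2 rose and 3 fell at 48 h, and 3 rose and 9 fell at 96 h. The called share was 7.69% at 48 h, against 12.2% of all loci tested, and 18.5% at 96 h, against 17.5%, so the share was below the background at 48 h and near it at 96 h. XLOC_018709 (chr5:77790973-77801004, 4 exons) lies next to REST, where the reference has SPINK2, a serine protease inhibitor of the male germ line. It measured 26.1, 64.7 and 46.5 CPM in the vehicle animals, 78.7, 86.2 and 75.2 at 48 h and 98.8, 86.2, 90.3 and 113 at 96 h. All 96 h libraries were above all vehicle libraries, and the rise at 96 h was 1.09 (SE 0.25, adjusted p = 0.0159). The call was lost without TP11 or with age class as a block. The age classes were 14 months, 15 months and over 20 months. All 96 h animals fell in the first class, as did TP09 alone among the vehicle animals. XLOC_012123 (chr3:6772315-6839747, 4 exons) lies between DSCAM and IGSF5 at PCP4, a small calmodulin-binding protein, and measured 9.71, 4.11 and 4.10 CPM in the vehicle animals, 2.09, 4.04 and 1.78 at 48 h and 1.60, 0.543, 1.16 and 1.14 at 96 h. The 96 h libraries were the 4 lowest, and the locus fell at 96 h by 2.44 (SE 0.44, adjusted p = 0.00511).

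The next 3 loci were picked after their values were seen. XLOC_017104 (chr4:79819165-79886377, 4 exons), in the interval of the poly(A) polymerase gene TENT5A, measured 21.8, 17.4 and 18.2 CPM in the vehicle animals, 8.33, 10.6 and 9.74 at 48 h and 12.8, 8.10, 8.55 and 8.39 at 96 h. Its vehicle libraries did not overlap the treated ones, and the differences were -1.003 (SE 0.20, adjusted p = 0.00881) at 48 h and -1.02 (SE 0.18, adjusted p = 0.0049) at 96 h. The 48 h call was lost without TP07 and TP08, the 2 animals over 20 months. XLOC_009187 (chr2:137657065-137694376, 12 exons), next to CLRN1 in the interval of MINDY4B, measured 4.06, 2.67 and 3.52 CPM in the vehicle animals, 3.17, 2.34 and 2.94 at 48 h and 1.11, 1.45, 1.11 and 1.65 at 96 h. It fell at 96 h, -1.35 (SE 0.24, adjusted p = 0.00439), with no overlap, and lost the call with age class as a block. XLOC_044045 (chr12:121665552-121668085, 3 exons) lies in the interval of HDAC4, a class IIa histone deacetylase, and measured 0.0991, 0.200 and 0.291 CPM in the vehicle animals, 1.08, 0.469 and 0.938 at 48 h and 1.79, 0.941, 2.23 and 0.784 at 96 h. Its vehicle levels were close to the floor of 3 counts. It reached 1 CPM in treated animals alone, so its levels are given without a test. XLOC_006476 lies in the interval of the actin-binding protein gene TWF2, the symbol that the authors' second table gives it. It measured 38.1, 37.2 and 43.8 CPM in the vehicle animals, 56.1, 60.9 and 55.1 at 48 h and 62.0, 40.2, 51.5 and 47.5 at 96 h. It rose at 48 h, 0.53 (SE 0.14, adjusted p = 0.0335), a call lost without any 1 of TP07, TP08, TP09, TP10 and TP12, with upper-quartile scaling and with age class as a block.

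A microRNA gene lies between the flanks of 60 of the loci. Of these, 1 rose and 5 fell at 48 h, and 2 rose and 6 fell at 96 h. Those called were 6 of 60 at 48 h, where 12.2% of all loci were called, and 13.3% at 96 h, where 17.5% were. Total RNA libraries of this kind measure the long transcript and not the mature microRNA. XLOC_067292 (chrX:128515167-128521453), between HPRT1 and a named noncoding locus at the MIR424 and MIR503 cluster, microRNAs known to restrain the cell cycle, measured 235, 294 and 264 CPM in the vehicle animals, 309, 298 and 299 at 48 h and 299, 254, 299 and 232 at 96 h. The 48 h libraries lay slightly above the vehicle ones, and no comparison passed the test. XLOC_027247, with 12 exons, lies in an interval where the reference has 36 microRNAs from MIR379 to MIR656, an imprinted cluster. It measured 41.4, 50.4 and 34.0 CPM in the vehicle animals, 51.7, 55.7 and 38.1 at 48 h and 65.6, 38.5, 57.0 and 33.9 at 96 h. The groups overlapped there. The let-7 loci XLOC_050746 (MIRLET7A-1, MIRLET7F-1 and MIRLET7D) and XLOC_036471 (MIRLET7B and MIRLET7A-3), whose microRNAs oppose LIN28 in germ cells, measured 123, 115 and 111 CPM in the vehicle animals, 99.5, 102 and 101 at 48 h and 117, 112, 118 and 93.8 at 96 h and 88.1, 92.0 and 89.1 CPM in the vehicle animals, 69.7, 93.2 and 88.5 at 48 h and 95.7, 69.2, 87.5 and 77.04 at 96 h. Neither passed the test in a comparison with vehicle.

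The locus with the MIR221 and MIR222 interval, XLOC_066403 (chrX:45880323-45904276, 2 exons), rose. These microRNAs are known in mouse spermatogonia to hold down KIT, the receptor that marks differentiation. It measured 0.793, 1.48 and 1.81 CPM in the vehicle animals, 3.61, 5.05 and 3.92 at 48 h and 4.02, 4.74, 4.30 and 2.39 at 96 h, with every treated library above every vehicle library. The rises were 1.62 (SE 0.34, adjusted p = 0.0115) at 48 h and 1.503 (SE 0.33, adjusted p = 0.012) at 96 h. Both calls were lost without TP07 and TP08 together, and the 96 h call also with age class as a block. The loci in the other intervals described here were picked after their values were seen. XLOC_003705 (chr1:64723541-64754555, 4 exons) in the interval of MIR101-1 measured 133, 144 and 113 CPM in the vehicle animals, 36.4, 43.5 and 47.0 at 48 h and 61.7, 39.2, 53.9 and 58.8 at 96 h. Its lowest vehicle library was above its highest treated one, and it fell by 1.62 (SE 0.17, adjusted p = 0.000502) at 48 h and by 1.28 (SE 0.15, adjusted p = 0.000559) at 96 h. Both falls were called in every alternative run. XLOC_002025 (chr1:158713324-158786502, 4 exons) in the interval of MIR29C and MIR29B-2, known to target collagen messages, measured 99.4, 102 and 96.7 CPM in the vehicle animals, 36.1, 71.3 and 60.2 at 48 h and 59.7, 62.8, 53.6 and 56.7 at 96 h. It fell at 48 h, -0.83 (SE 0.19, adjusted p = 0.0183), and at 96 h, -0.77 (SE 0.18, adjusted p = 0.0157). The first call was lost without TP09 or with the compared groups fitted alone, and the second without TP07. XLOC_056614 in the MIR17 to MIR20A interval, a cluster that promotes proliferation, measured 8.45, 10.3 and 16.1 CPM in the vehicle animals, 6.41, 8.01 and 10.7 at 48 h and 4.07, 5.79, 6.28 and 4.82 at 96 h. It fell at 96 h, -1.15 (SE 0.26, adjusted p = 0.0141), and lost the call without TP11.

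Relative to named loci within 5 kb, the spliced unannotated loci were mostly intergenic or divergent. The classes were intergenic for 740 (59.8%), divergent for 191 (15.4%), downstream on the same strand for 96 (7.75%), antisense and overlapping for 82 (6.62%), within the span of a named locus on the same strand for 64 (5.17%), upstream on the same strand for 45 (3.63%) and convergent for 20 (1.62%). Of the divergent loci, 140 began within 500 bases of the named start and 155 within 1 kb. Single-exon loci were divergent in 10.6% (Wilson 95% interval 9.91 to 11.4%), against 13.5 to 17.5% for the spliced ones. Under stricter exon rules the spliced share was nearer to that of single-exon loci. It was 11.3% with at least 3 exons, inside the single-exon interval, and 11.6% where every transcript was spliced. Within the span of a named locus, single-exon loci were at 25.5% (24.5 to 26.6%), against 4.07 to 6.55%. No spliced unannotated locus shared exonic bases with a named locus on the same strand, and 59 of the 82 antisense loci shared some with the opposite strand. The strand setting of the counting is not given in the sources used here, so counts of those 59 cannot be separated from their partners. Intergenic loci with a named locus on the same chromosome (670) lay a median of 39400.5 bases from it (interquartile range 14689.5 to 103384.5).

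**Figure D2:**
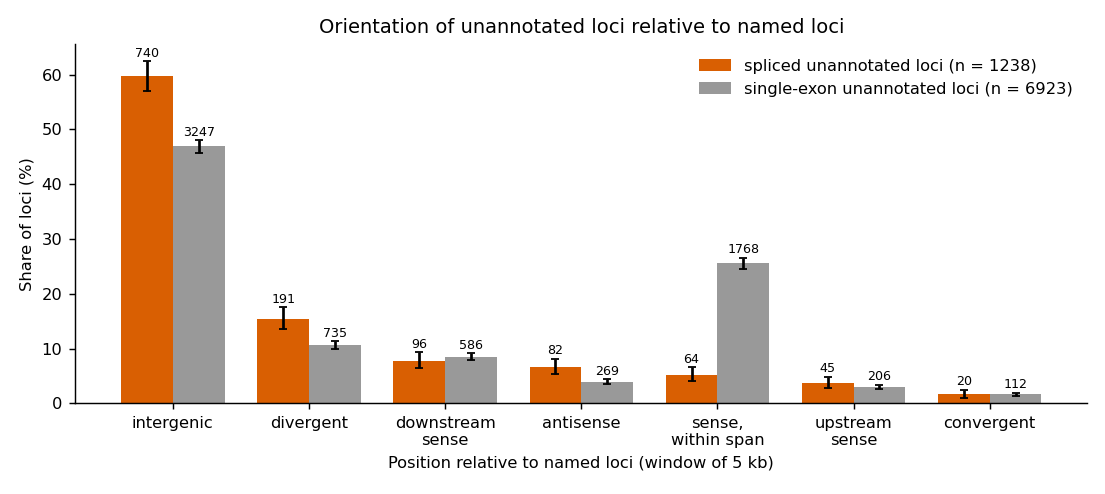
Share of loci (percent) in each orientation class relative to named loci within 5 kb, for spliced and single-exon unannotated loci, with Wilson 95% intervals as error bars. The spliced loci shown have more divergent members and fewer members within the span of a named locus than the single-exon loci. With at least 3 exons their divergent share was 11.3%, inside the single-exon interval, and it was 11.6% where every transcript was spliced.

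Together the spliced unannotated loci took a smaller share of the counts in treated testes. The share was 1.88, 2.03 and 1.94% in TP07, TP09 and TP11, 1.44, 1.60 and 1.42% in TP08, TP10 and TP12, and 1.59, 1.68, 1.67 and 1.48% in TP15 to TP18. The vehicle values lay above all treated ones, and the 48 h and 96 h values overlapped. Group means were 1.95% ± 0.0742 (SD, n = 3), 1.49% ± 0.0969 (n = 3) and 1.61% ± 0.0931 (n = 4). Without XLOC_048624 they were 1.06%, 0.820% and 0.861%, again with vehicle highest. With TMM-scaled library sizes the ranges were 1.78 to 1.91% in vehicle, 1.39 to 1.60% at 48 h and 1.499 to 1.85% at 96 h, so vehicle and 96 h then overlapped. In whole testis, fewer cells of a type and less RNA per cell cannot be told apart, here and in the comparisons that follow.

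**Figure D3:**
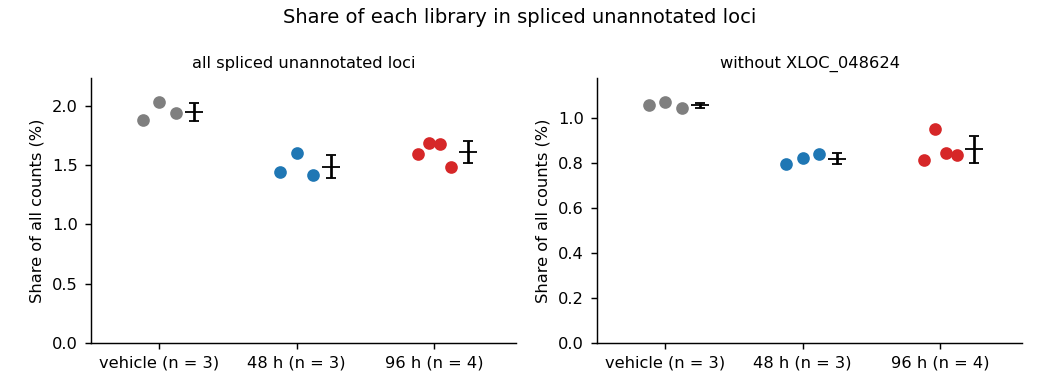
Share of each library's counts (percent) in the spliced unannotated loci, with 1 point per animal by group and the mean ± SD. The 3 vehicle animals lie between 1.88 and 2.03% and the 7 treated animals between 1.42 and 1.68%.

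After 48 h of gonadotropin, 14 of the 1238 loci rose and 53 fell. Over all loci tested 8.53% rose and 3.67% fell, 12.2% together, so the share that rose (1.13%) was below that background and the share that fell (4.28%) near it. The median difference was -0.30 on the log2 scale, against -0.07 over all loci. Libraries of the groups did not overlap for 56 loci that were higher and 279 that were lower, 27.1% of the loci. Over all loci the same held for 18.1% and 18%, 36.1% in all. Named loci in the same interquartile range of level (3690) gave 85 rises and 85 falls with a median of -0.16, and the 618 spliced unannotated loci in that range gave 7 and 22 with a median of -0.31. The 1288 named lncRNA loci gave 13 and 56, and the 6923 single-exon loci 53 and 304. Of 14 pan germ cell markers measured, 1 fell, and their summed level was 958 to 1241 CPM in vehicle and 655 to 980 CPM at 48 h, ranges that overlap. Of 18 undifferentiated spermatogonia markers, 2 fell, with sums of 705 to 759 and 454 to 522 CPM, without overlap. Of 11 differentiating spermatogonia markers, 2 rose and 1 fell, with sums of 400 to 447 and 650 to 742 CPM. Their median difference was -0.34, so the higher sum does not hold for the median marker. Meiotic prophase sums overlapped (178 to 228 and 142 to 192 CPM). The part of these markers in the falls was not tested. Without TP07 and TP08, the animals over 20 months, 3 loci rose and 7 fell. Without TP08 alone 7 rose and 17 fell, and without TP09 alone 7 and 28.

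Entry into the table bears on these counts. Only vehicle libraries reached 1 CPM for 12 loci, of which 5 fell at 48 h and 7 at 96 h. Only 48 h libraries did so for 1 locus, which rose at 48 h, and only 96 h libraries for 2 loci, which rose at 96 h. Such loci had to differ to be listed. Among those described below, XLOC_007281, XLOC_021800 and XLOC_042905 reached 1 CPM in vehicle alone, XLOC_035483 at 48 h alone and XLOC_000733 at 96 h alone, and their levels are given without a test. The other 1223 gave 13 rises and 48 falls at 48 h, 20 and 123 at 96 h, and 4 and 1 between the times. These 1223 still hold loci that reached 1 CPM in treated libraries of both times and in no vehicle library. XLOC_044045, described above, and XLOC_040669, XLOC_065031 and XLOC_022042, described below, are of this kind. They were listed through the treated animals, so their differences from vehicle carry the same limit.

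Among the loci named by their size of rise was XLOC_040669, with 6 exons. It measured 0.132, 0.479 and 0.775 CPM in the vehicle animals, 3.20, 6.49 and 3.95 at 48 h and 12.5, 3.29, 10.0 and 5.92 at 96 h. All 7 treated libraries were above all vehicle libraries. The differences were 3.28 (SE 0.63, adjusted p = 0.00863) at 48 h and 4.08 (SE 0.63, adjusted p = 0.00258) at 96 h, called in every alternative run. XLOC_035483 (chr10:16250946-16259299, 3 exons), in an interval between named noncoding loci, measured 0.330, 0.160 and 0.194 CPM in the vehicle animals, 8.77, 2.56 and 2.88 at 48 h and 0.678, 0.615, 1.06 and 0.431 at 96 h. Its 48 h animals were the 3 highest, and it was listed through them alone. XLOC_023940 (chr6:38973055-38974742, 2 exons), 904 bases from EGFLAM, a matrix protein gene, in convergent position, measured 0.826, 1.04 and 0.743 CPM in the vehicle animals, 3.24, 2.53 and 3.82 at 48 h and 2.90, 2.57, 2.63 and 1.65 at 96 h. Its treated libraries were all above vehicle, with 1.88 (SE 0.29, adjusted p = 0.00257) at 48 h and 1.49 (SE 0.27, adjusted p = 0.00545) at 96 h.

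Other rises at 48 h were smaller. XLOC_065031 on the X chromosome, next to the transcriptional corepressor gene BCOR, measured 0.793, 0.599 and 0.937 CPM in the vehicle animals, 3.17, 2.16 and 2.201 at 48 h and 1.98, 2.35, 1.47 and 1.02 at 96 h. It rose at 48 h, 1.68 (SE 0.34, adjusted p = 0.00986), without overlap. XLOC_048789, antisense to LOC701437 near the glycine acyltransferase gene GLYAT, measured 0.793, 1.32 and 1.32 CPM in the vehicle animals, 3.47, 3.21 and 3.20 at 48 h and 4.41, 7.27, 3.90 and 4.19 at 96 h, and XLOC_056022, next to DLEU7, measured 1.42, 0.998 and 1.78 CPM in the vehicle animals, 3.10, 3.14 and 4.14 at 48 h and 3.44, 5.46, 3.39 and 3.68 at 96 h. Both had their lowest levels in the vehicle animals. The former rose by 1.52 (SE 0.30, adjusted p = 0.00866) at 48 h and 2.11 (SE 0.29, adjusted p = 0.00125) at 96 h, and the latter by 1.30 (SE 0.29, adjusted p = 0.0143) and 1.51 (SE 0.28, adjusted p = 0.00513). XLOC_022042, between the thrombin receptor gene F2R and F2RL1, measured 0.495, 0.319 and 0.937 CPM in the vehicle animals, 1.55, 1.37 and 1.84 at 48 h and 0.678, 1.19, 0.810 and 0.901 at 96 h. It rose at 48 h, 1.42 (SE 0.39, adjusted p = 0.0348). All 4 of these 48 h calls were lost without TP07 and TP08 together, that of XLOC_056022 also without TP09 or TP12 and that of XLOC_022042 also without any 1 of TP07, TP08, TP09, TP10 and TP12 and with upper-quartile scaling.

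The fall at XLOC_018661 (chr5:73852184-74051774, plus strand, 3 exons) was called in every alternative run. It lies in the wide interval beside ADGRL3, an adhesion receptor gene 469673 bases away. It measured 4.82, 4.63 and 4.14 CPM in the vehicle animals, 0.742, 0.866 and 0.938 at 48 h and 0.775, 0.904, 1.16 and 1.06 at 96 h. The lowest vehicle library was above the highest treated library, and the differences were -2.41 (SE 0.24, adjusted p = 0.000439) at 48 h and -2.21 (SE 0.21, adjusted p = 0.000219) at 96 h. XLOC_007529 (chr2:204685164-204691671, plus strand, 2 exons), 3245 bases downstream of the peptidase gene LMLN on the same strand, measured 15.6, 8.14 and 10.1 CPM in the vehicle animals, 0.236, 0.180 and 0.291 at 48 h and 1.60, 3.55, 1.87 and 0.118 at 96 h. No treated library reached the lowest vehicle value. It fell by 5.55 (SE 0.88, adjusted p = 0.00407) at 48 h and by 2.65 (SE 0.65, adjusted p = 0.0227) at 96 h. The 48 h call was lost without TP07 and TP08 together, and the 96 h call without any 1 of TP07, TP11, TP15 and TP17, without TP07 and TP08 together, with the compared groups alone, with age as a covariate and with age class as a block.

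Falls at 48 h with other patterns followed. XLOC_069957, on an unplaced scaffold, measured 7.36, 6.51 and 2.55 CPM in the vehicle animals, 0.540, 1.44 and 0.324 at 48 h and 2.71, 2.50, 2.38 and 3.21 at 96 h. It fell at 48 h, -2.84 (SE 0.52, adjusted p = 0.00653), while 96 h was -1.02 (adjusted p = 0.133). XLOC_005822 (chr2:27192123-27212459, 3 exons), next to the ubiquitin ligase gene CBLB, measured 6.54, 5.07 and 4.94 CPM in the vehicle animals, 2.19, 1.77 and 0.615 at 48 h and 3.82, 4.02, 4.20 and 4.35 at 96 h. Its 48 h values were the 3 lowest, a fall of 1.86 (SE 0.37, adjusted p = 0.00856). XLOC_043105, 17976 bases from the potassium channel gene KCNJ3, measured 5.55, 7.62 and 5.49 CPM in the vehicle animals, 1.01, 2.06 and 1.49 at 48 h and 3.49, 1.48, 3.64 and 2.82 at 96 h. It fell at 48 h, -2.03 (SE 0.36, adjusted p = 0.00554), and at 96 h, -1.13 (SE 0.32, adjusted p = 0.036). XLOC_029265 (chr7:163892015-163900071, 6 exons) is divergent from DIO3, which inactivates thyroid hormone, at 806 bases, and measured 11.6, 28.7 and 15.8 CPM in the vehicle animals, 1.62, 4.87 and 3.62 at 48 h and 11.7, 2.68, 6.73 and 10.8 at 96 h. It fell at 48 h, -2.47 (SE 0.59, adjusted p = 0.0233), and DIO3 itself was at -1.76 (adjusted p = 0.0945). The 48 h calls of XLOC_069957, XLOC_043105 and XLOC_029265 were lost without TP07 and TP08 together, and that of XLOC_029265 also without TP08, TP09 or TP12 alone. The 96 h call of XLOC_043105 was lost without any 1 of TP07, TP09, TP11, TP12 and TP18, and without TP07 and TP08 together.

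After 96 h, 22 loci rose and 130 fell, against 10.6% of all loci that rose and 6.89% that fell, 17.5% together. The share of the spliced unannotated loci was 1.78% for rises and 10.5% for falls. The median difference was -0.41, against -0.01 over all loci. Libraries did not overlap for 40 that were higher and 309 that were lower, 28.2% of the loci, against 15.9% and 14.9% of all loci, 30.7% together. Named loci in the same range of level gave 131 rises and 354 falls of 3690 (median -0.24), and the spliced unannotated loci in that range gave 9 and 64 of 618 (median -0.41). The single-exon loci gave 145 and 385 of 6923, with a median of -0.17, and the named lncRNA loci gave 29 and 122 of 1288. Pan germ cell markers fell in 9 of 14 cases at 96 h, with a summed level of 494 to 851 CPM against 958 to 1241 CPM in vehicle. Undifferentiated spermatogonia markers fell in 7 of 18 cases, with a sum of 393 to 530 CPM. Of 11 differentiating spermatogonia markers, 2 rose and 4 fell, with a sum of 628 to 729 CPM, above vehicle. Their median difference was -0.68, so the sum and the median marker went in opposite directions. Of 14 meiotic prophase markers, 1 rose and 4 fell (131 to 179 CPM). The part of these markers in the falls was not tested. The number of falls was 224 with upper-quartile scaling, 28 with age class as a block and 32 without TP07 and TP08. Leaving out TP07 alone gave 40, TP11 alone 43, TP17 alone 50, TP09 alone 76 and TP15 alone 79. The rises numbered 12 without TP07, 14 without TP11 and 13 without TP17.

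By position, falls at 96 h numbered 80 of 740 intergenic loci (median difference -0.51), 23 of 191 divergent loci (-0.36), 8 of 82 antisense loci (-0.32), 7 of 96 downstream loci (-0.12), 7 of 45 upstream loci (-0.42), 3 of 20 convergent loci (-0.23) and 2 of 64 loci within the span of a named locus (-0.05). Rises numbered 13, 1, 1, 2, 1, 2 and 2 in the same order. At 48 h the same classes gave 31, 7, 2, 4, 4, 1 and 4 falls and 10, 0, 2, 0, 1, 1 and 0 rises. Differences between classes were not tested.

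Loci that rose at 96 h included XLOC_030458 (chr8:97023669-97051094, 4 exons), next to NIPAL2, a magnesium transporter relative. It measured 2.05, 1.60 and 3.30 CPM in the vehicle animals, 4.69, 6.06 and 4.95 at 48 h and 12.4, 5.21, 12.6 and 6.94 at 96 h. All treated libraries lay above vehicle, and the rise at 96 h was 1.99 (SE 0.36, adjusted p = 0.00511), called in every alternative run. XLOC_026833 (chr7:117949386-118002977, 2 exons), next to the ubiquitin ligase gene PELI2, measured 0.594, 1.08 and 1.13 CPM in the vehicle animals, 2.66, 1.33 and 1.36 at 48 h and 2.86, 3.29, 3.09 and 2.27 at 96 h. The 96 h animals were above vehicle, with 1.62 (SE 0.33, adjusted p = 0.00919), and the call was lost with age class as a block. XLOC_050240, whose nearest matched neighbours include IER5L, measured 1.12, 2.24 and 1.36 CPM in the vehicle animals, 4.59, 4.47 and 2.62 at 48 h and 3.63, 2.57, 8.91 and 6.94 at 96 h. It rose at 96 h, 1.81 (SE 0.45, adjusted p = 0.0213), and lost the call without TP07, TP11 or TP17, without TP07 and TP08 together and with either age term (age as a covariate or age class as a block).

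Loci with their lowest levels at 96 h included XLOC_007281 (chr2:174436050-174456471, 3 exons), next to TBC1D5, a regulator of endosomal trafficking. It measured 2.77, 1.24 and 2.33 CPM in the vehicle animals, 0.506, 0.974 and 0.421 at 48 h and 0.145, 0.253, 0.405 and 0.196 at 96 h. The 96 h animals were the 4 lowest, and the locus was listed through the vehicle animals alone. XLOC_057560, next to the protocadherin gene PCDH17, measured 2.94, 1.28 and 3.55 CPM in the vehicle animals, 1.65, 1.23 and 1.20 at 48 h and 0.436, 0.760, 0.607 and 0.196 at 96 h. It fell at 96 h, -2.37 (SE 0.44, adjusted p = 0.00534), and lost the call with age class as a block, as did XLOC_051677 and XLOC_056555. XLOC_056555 (chr17:70216962-70295187, 2 exons) measured 26.0, 7.66 and 15.6 CPM in the vehicle animals, 8.97, 10.8 and 7.31 at 48 h and 1.26, 4.38, 0.962 and 5.33 at 96 h, a difference of -2.44 (SE 0.58, adjusted p = 0.0207) that was also lost without TP07 or TP11, without TP07 and TP08 together and with age as a covariate. XLOC_051677 measured 0.727, 1.20 and 3.78 CPM in the vehicle animals, 1.32, 0.974 and 0.744 at 48 h and 0.436, 0.724, 0.405 and 0.235 at 96 h. It fell by 2.06 (adjusted p = 0.0291), a call lost without TP11, TP15, TP17 or TP18, with voom and with the compared groups alone.

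**Figure D4:**
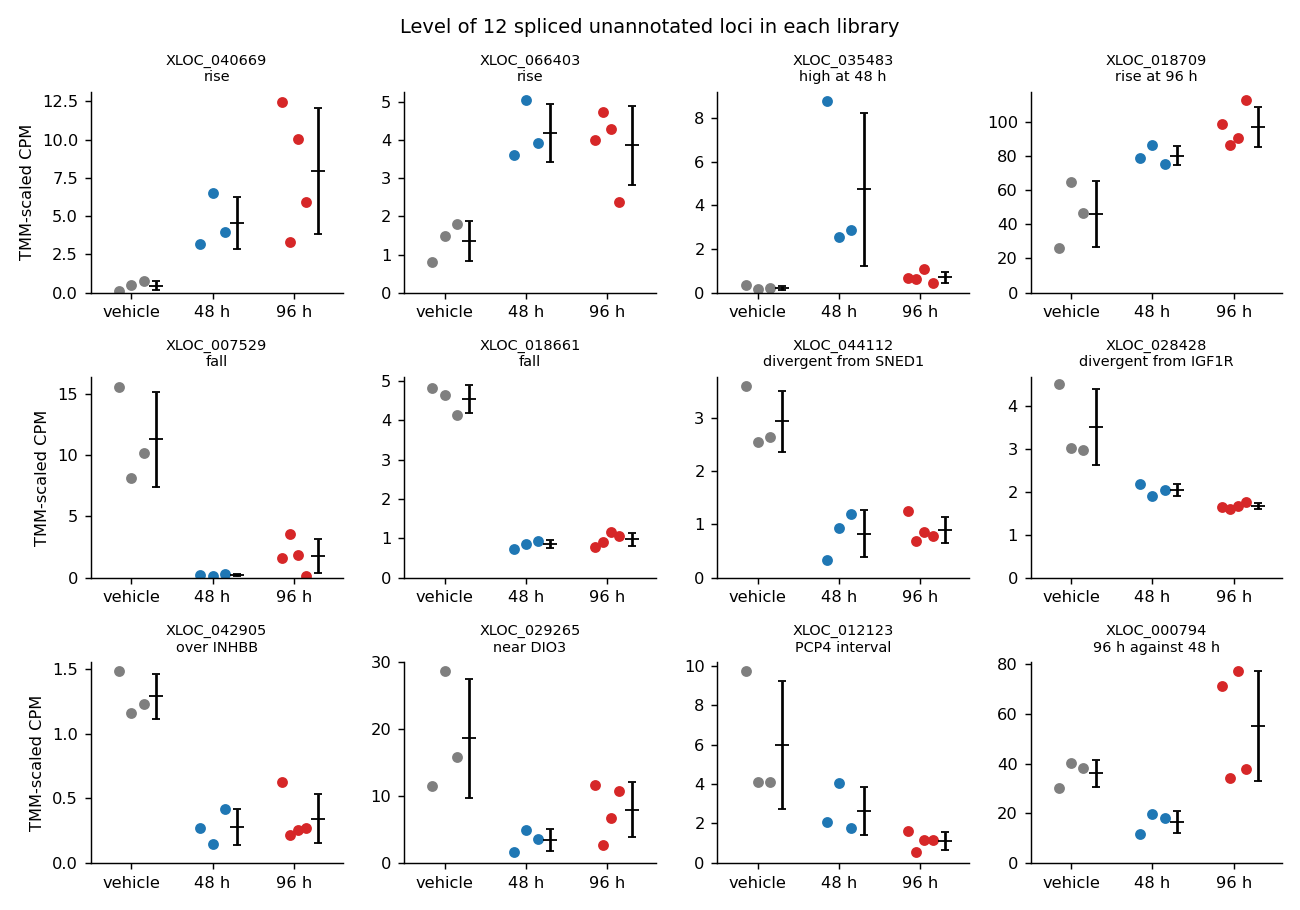
Level (TMM-scaled CPM, linear axes from 0 that differ between panels) of 12 spliced unannotated loci in each animal, by group, with 1 point per animal and bars at the mean ± SD. XLOC_040669 and XLOC_066403 lie above vehicle in every treated animal, XLOC_018661 and XLOC_007529 lie below it, and XLOC_035483 is high in the 48 h animals.

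Between 48 h and 96 h, 4 loci rose and 2 fell, where 0.817% and 0.25% of all loci did, 1.07% together. Libraries of the 2 times did not overlap for 57 that were higher and 86 that were lower at 96 h, 11.6% of the loci, against 7.93% and 8.61% of all loci, 16.5% together. An unadjusted p below 0.05 was seen for 186 of the 1238, a smaller share than the 5614 of all 26813 loci. XLOC_000794 (chr1:55245607-55292622, 2 exons, intergenic) measured 29.95, 40.2 and 38.3 CPM in the vehicle animals, 11.5, 19.8 and 18.1 at 48 h and 71.3, 34.0, 77.3 and 37.9 at 96 h. The 48 h animals were the 3 lowest and 96 h rose above them by 1.74 (SE 0.32, adjusted p = 0.0389). XLOC_020313 (chr5:70232716-70245333, 2 exons), next to TECRL, measured 6.80, 4.59 and 6.95 CPM in the vehicle animals, 2.29, 1.55 and 1.72 at 48 h and 4.16, 4.49, 5.16 and 6.58 at 96 h. It fell at 48 h, -1.72 (SE 0.27, adjusted p = 0.00285), and at 96 h exceeded 48 h by 1.46 (SE 0.25, adjusted p = 0.0273). XLOC_055803 measured 51.2, 67.7 and 44.3 CPM in the vehicle animals, 41.3, 43.2 and 44.7 at 48 h and 59.0, 72.6, 89.8 and 80.2 at 96 h, and XLOC_045626, 8363 bases from OSR1, measured 10.3, 9.90 and 9.08 CPM in the vehicle animals, 7.45, 9.60 and 8.51 at 48 h and 18.3, 13.1, 20.3 and 13.2 at 96 h. Their 96 h animals lay above their 48 h animals, at 0.81 (SE 0.16, adjusted p = 0.0422) and 0.93 (SE 0.19, adjusted p = 0.0438) over 48 h. The 2 falls were XLOC_035483, listed through the 48 h animals alone, and XLOC_003783, picked after its values were seen. XLOC_003783 was at -1.79 (SE 0.36, adjusted p = 0.0422) and measured 0.892, 1.36 and 1.13 CPM in the vehicle animals, 0.809, 0.541 and 1.003 at 48 h and 0.242, 0.253, 0.202 and 0.196 at 96 h. The call of XLOC_003783 was lost in all 10 leave-one-out runs, with voom, with the compared groups alone and with either age term. Those of XLOC_000794 and XLOC_045626 were lost without any 1 animal other than TP16, with the compared groups alone and with either age term. That of XLOC_055803 was lost without any 1 of TP07, TP08, TP10, TP12, TP16, TP17 and TP18, with upper-quartile scaling and with either age term, and that of XLOC_020313 without any 1 of TP08, TP10, TP12, TP17 and TP18. Leaving out any 1 of TP08, TP10, TP12 and TP17, or TP07 and TP08 together, left no rise. Leaving out any 1 of TP08, TP10, TP17 and TP18, or TP07 and TP08 together, left no fall.

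Named loci within 5 kb that were also tested allowed 450 pairs to be compared. Log2 fold changes of spliced unannotated loci and divergent named partners had a Pearson r across 165 pairs of 0.52 at 48 h and 0.44 at 96 h. Divergent single-exon loci (665 pairs) gave 0.18 and 0.27, and 2 named divergent loci (1114 pairs) gave 0.25 and 0.25. For loci within the span of a named locus (62 pairs) r was 0.80 and 0.82, and the 48 h value was 0.49 without both pairs at LOC100428378, which have several-fold differences among animals of 1 group. Downstream pairs on the same strand (88) gave 0.18 and 0.22, or 0.43 and 0.35 without the LMLN pair, and antisense pairs (81) gave 0.31 and 0.27. Downstream single-exon loci (568 pairs) gave 0.64 and 0.66. At 48 h the downstream r was -0.089 where both loci had a mean log2 CPM of at least 1. All pairs share libraries and depth, loci are not independent replicates, and differences between these values were not tested.

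**Figure D5:**
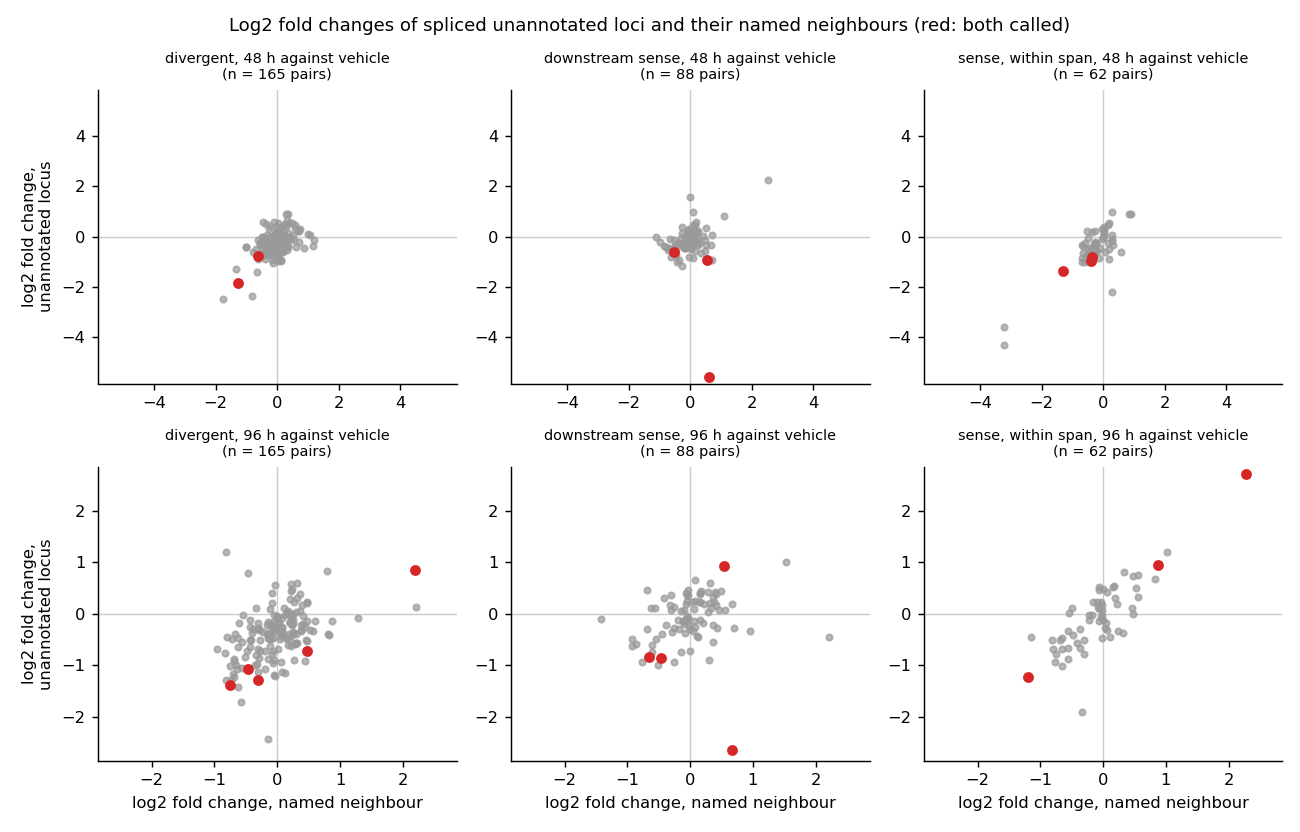
Log2 fold change of each spliced unannotated locus (vertical) against that of its named partner (horizontal), at 48 h and 96 h, for divergent, downstream same-strand and within-span pairs. Points in red are pairs with both loci called, and the divergent pairs have an r of 0.52 at 48 h and 0.44 at 96 h.

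Both loci of a pair were called in 9 of the 450 pairs at 48 h, 7 in the same direction, and in 17 at 96 h, 13 in the same direction, with XLOC_000733 among them. In these 450 pairs the unannotated locus was called in 23 at 48 h and 51 at 96 h, and the named partner in 59 and 92. Over all loci tested, 12.2% and 17.5% were called. Pairs of 2 named loci were not counted in this way, so whether 9 and 17 are many or few was not tested. The pairs below were picked after their values were seen, except where the locus was named by size or by its neighbour. XLOC_044112 (chr12:123834660-123838681, 2 exons) starts 89 bases from the start of SNED1, an extracellular matrix gene, on the other strand. The locus measured 3.60, 2.55 and 2.65 CPM in the vehicle animals, 0.337, 0.938 and 1.20 at 48 h and 1.26, 0.687, 0.860 and 0.784 at 96 h, and SNED1 measured 40.2, 52.7 and 44.6 CPM in the vehicle animals, 14.7, 24.3 and 18.3 at 48 h and 39.7, 23.5, 33.4 and 26.3 at 96 h. The group means of both were lowest at 48 h, and the difference was -1.83 (adjusted p = 0.0142) beside -1.26 (adjusted p = 0.00552) in the gene. At 96 h the locus was at -1.71 (SE 0.37, adjusted p = 0.0115) and SNED1 at -0.58 (SE 0.20, adjusted p = 0.0737). The 48 h call of the locus was lost without TP07 and TP08 together, and its 96 h call with age class as a block.

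XLOC_028428 (chr7:77271129-77276340, 2 exons) is divergent from IGF1R, the insulin-like growth factor receptor gene, at 810 bases. The locus measured 4.52, 3.03 and 2.97 CPM in the vehicle animals, 2.19, 1.91 and 2.04 at 48 h and 1.65, 1.59, 1.67 and 1.76 at 96 h and IGF1R measured 227, 224 and 184 CPM in the vehicle animals, 131, 139.9 and 139 at 48 h and 131, 184, 127 and 167 at 96 h. Every vehicle library of the locus lay above the treated ones, and in IGF1R the 96 h animal TP16 reached the lowest vehicle value. The differences at 96 h were -1.07 (adjusted p = 0.00756) beside -0.47 (adjusted p = 0.0333), and at 48 h -0.78 (adjusted p = 0.0465) beside -0.63 (adjusted p = 0.0161). The 48 h call of the locus was lost without any 1 of TP07 to TP12, TP15, TP17 and TP18. It was also lost with RLE scaling and with the compared groups alone. Both its 48 h and 96 h calls were lost without TP07 and TP08 together and with age class as a block. The call of IGF1R was lost at 48 h without TP07, TP08 or TP09, and at both times without TP07 and TP08 together. At 96 h it was also lost without TP07, TP09, TP15 or TP17, with the compared groups alone and with either age term.

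At ZWINT, a kinetochore gene, the divergent locus XLOC_034845 (chr9:76456522-76464503, 2 exons, 179 bases away) measured 7.83, 4.03 and 4.94 CPM in the vehicle animals, 5.83, 7.22 and 5.21 at 48 h and 9.92, 10.5, 12.5 and 7.68 at 96 h. ZWINT measured 6.77, 8.62 and 13.8 CPM in the vehicle animals, 17.7, 14.9 and 26.2 at 48 h and 41.8, 42.2, 46.5 and 48.4 at 96 h. The group means of both were highest at 96 h, with 0.85 (adjusted p = 0.0416) beside 2.198 (adjusted p = 0.000594). The call of the locus was lost without any 1 of TP08, TP09, TP11, TP12, TP15, TP16 and TP17, with upper-quartile scaling, with the compared groups alone and with age class as a block. XLOC_000733 lies within the span of C1H1orf185 and measured 0.132, 0.0798 and 0.323 CPM in the vehicle animals, 0.236, 0.397 and 0.453 at 48 h and 1.36, 1.48, 1.42 and 0.666 at 96 h, and the named locus measured 1.09, 0.918 and 1.58 CPM in the vehicle animals, 0.776, 1.70 and 1.97 at 48 h and 5.42, 5.86, 7.64 and 4.43 at 96 h. All 96 h values of both were above vehicle. The locus was listed through the 96 h animals alone, and the named locus rose by 2.27 (adjusted p = 0.00219). XLOC_060806 ends 50 bases before the start of BCAM, a laminin receptor gene, on the same strand. It fell with BCAM at 48 h, -1.78 (adjusted p = 0.0241) beside -1.21 (adjusted p = 0.006). The call of the locus was lost without TP07, TP08, TP09 or TP12, and both calls without TP07 and TP08 together. XLOC_043123, 217 bases upstream of the orphan nuclear receptor gene NR4A2, was at 0.44 (adjusted p = 0.0442) beside 1.02 (adjusted p = 0.0211) at 96 h, and its call was lost in all leave-one-out runs but that of TP18. The call of XLOC_043123 was also lost with upper-quartile scaling, exactTest, voom and the compared groups alone. The NR4A2 call was lost without TP07, TP09 or TP11, and both calls with either age term and without TP07 and TP08 together. Opposite calls were seen for XLOC_007529 and LMLN, -5.55 (adjusted p = 0.00407) beside 0.62 (adjusted p = 0.0481) at 48 h. The LMLN call at 48 h was lost without TP07, TP08, TP09, TP11, TP12, TP15, TP16 or TP18, with upper-quartile scaling, voom, the compared groups alone or age class as a block, and, as for XLOC_007529, without TP07 and TP08 together.

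The 11 gene lists of testis cell types and pathways were searched for genes within 10 kb of a spliced unannotated locus, and 10 loci lay there. The loci at IGF1R and INHBB had an adjusted p of at most 0.05, and the latter was listed through the vehicle animals alone. INHBB encodes the beta B subunit of inhibin B, a Sertoli cell hormone. XLOC_042905 (chr12:10808022-10832206, 2 exons, same strand, no shared exon) measured 1.49, 1.16 and 1.23 CPM in the vehicle animals, 0.270, 0.144 and 0.421 at 48 h and 0.629, 0.217, 0.253 and 0.274 at 96 h, and INHBB measured 151, 111 and 106 CPM in the vehicle animals, 169, 137 and 146 at 48 h and 75.6, 115, 79.5 and 118 at 96 h. The vehicle values of the locus were the 3 highest, while INHBB groups overlapped. INHBB was at 0.30 (SE 0.20, adjusted p = 0.355) at 48 h and -0.34 (SE 0.18, adjusted p = 0.216) at 96 h. Loci near MYLK, LIN28B, RET, SMTN, BUB1, WT1, FOXO1 and SOX8 were not called in either comparison with vehicle. XLOC_055920, divergent from FOXO1 at 226 bases, missed the threshold at 48 h (-1.39, adjusted p = 0.0502), where FOXO1, a transcription factor of undifferentiated spermatogonia, fell by 0.64 (adjusted p = 0.00354).

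Further loci were picked after their values were seen. XLOC_021800 (chr6:43529424-43536088, 3 exons) starts 246 bases from SEPP1, the selenoprotein P gene, in divergent position. The locus measured 1.22, 1.36 and 1.002 CPM in the vehicle animals, 0.169, 0.289 and 0.227 at 48 h and 0.242, 0.145, 0.253 and 0.235 at 96 h, and SEPP1 measured 501, 727 and 666 CPM in the vehicle animals, 193, 514 and 362 at 48 h and 691, 324, 698 and 572 at 96 h. The locus reached 1 CPM in vehicle alone, and SEPP1 overlapped between groups. The differences of SEPP1 were -0.83 (SE 0.36, adjusted p = 0.175) at 48 h and -0.14 (SE 0.34, adjusted p = 0.792) at 96 h. XLOC_015880 (chr4:159372712-159378322, 2 exons), antisense to LACE1, a mitochondrial ATPase gene, measured 7.43, 5.07 and 5.10 CPM in the vehicle animals, 2.12, 2.06 and 2.75 at 48 h and 1.89, 1.48, 1.57 and 2.90 at 96 h. Its vehicle values did not overlap the treated ones. It fell at 48 h, -1.34 (SE 0.29, adjusted p = 0.0136), and at 96 h, -1.58 (SE 0.27, adjusted p = 0.00396), the first call being lost without TP08 and without TP07 and TP08 together.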

How the data were processed

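Stranded total RNA libraries of 10 testes were analysed, 1 per animal, and the p-values reflect variation among animals. Per the submitters' processing notes, the authors' tools include Cufflinks 2.2.1, HTSeq 0.6.1p1, TopHat2 2.1.1 with Bowtie2 2.2.8, cutadapt 1.9.1 and edgeR, on rheMac8. The counts are whole numbers per locus as deposited by the authors, beside merged transcript models. They also deposited CPM values, which were not tested, and a table of their own log2 fold changes and p-values. At an adjusted p-value of at most 0.05, the authors' deposited table gave 22 rises and 64 falls of these loci at 48 h, 25 and 132 at 96 h, and 23 and 12 between the times, of which 59, 123 and 6 were also called here in the same direction. No count column lacked a sample.

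Counts were tested in edgeR 4.0.16 (R 4.3.3, TMM, robust glmQLFit and glmQLFTest, all 10 libraries in 1 fit, Benjamini-Hochberg over 26813 loci, threshold 0.05). The biological coefficient of variation was 0.259. The statistical code was tested on simulated data. Alternatives were DESeq2 1.42.0, limma 3.58.1 voom, edgeR's exactTest, other scalings and filters, age terms, stricter exon rules, other windows and leaving out animals. Overlaps used bedtools 2.31.1. Positions are 1-based rheMac8 exon limits from the models. Names between flanks come from the RefSeq gene table of T2T-MMU8v2.0. Its coordinates were used to find the genes between the flanks and to leave out intervals far wider there than in rheMac8. No position given here comes from them. No genome sequence was used here, so no sequence is shown.

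Loci were named by 5 rules: the 8 largest rises and 8 largest falls per comparison among called loci whose mean log2 CPM was 0 or more and whose groups did not overlap, the 10 highest by CPM and the 10 highest by CPM per kb, the 5 with the most exons, those within 10 kb of a listed gene, and the 6 best-covered divergent pairs. The members and the lists were chosen with earlier results of these data known. The positions and neighbours of some named loci are not reported here. Loci outside these rules are said to have been picked after their values were seen. Replicate pairs differed by more than sampling noise.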

Additional observations from a re-analysis of the deposited data

Results flagged for a closer look

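Among the loci named in the report, 60 groups of 4 animals were checked for a single distant animal, and 4 had one, where chance gives about 1 in 20. XLOC_025556, named C15orf48 in the authors' second table, was at 1.74 CPM in the 96 h animal TP15, against 8.94 to 9.97 CPM in the other 3 animals. XLOC_042905 at INHBB was at 0.629 CPM in TP15, against 0.217 to 0.274 CPM. The same check picked out TP16 at XLOC_048789, with 7.27 CPM against 3.90 to 4.41 CPM, and at XLOC_056022, with 5.46 CPM against 3.39 to 3.68 CPM.

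For 6 loci the 96 h and 48 h animals differed by edgeR's test of the difference itself. Those higher at 96 h than at 48 h were XLOC_000794 by 1.74 (adjusted p = 0.0389), XLOC_020313 by 1.46 (adjusted p = 0.0273), XLOC_045626 by 0.93 (adjusted p = 0.0438) and XLOC_055803 by 0.81 (adjusted p = 0.0422). Those lower were XLOC_035483 at -2.78, a locus listed through the 48 h animals alone, and XLOC_003783 at -1.79 (adjusted p = 0.0422).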

How the results depend on the processing

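In all comparisons counts of called loci moved with the setting. At 48 h, 14 rises and 53 falls became 28 and 88 with DESeq2, 5 and 12 at an adjusted p of at most 0.01, 9 and 25 among loci of at least 3 exons, 7 and 19 where every transcript was spliced, and 3 and 7 without both animals over 20 months. The rises were also 9 with upper-quartile scaling and 22 with exactTest. Leaving out 1 animal gave 7 to 17 rises and 17 to 61 falls. At 96 h, 22 rises and 130 falls became 9 and 17 at an adjusted p of at most 0.01, 9 and 65 with at least 3 exons and 13 and 32 without both animals over 20 months. The rises were 35 with DESeq2. The falls were 224 with upper-quartile scaling, 56 with age as a covariate, 28 with age class as a block and 49 where every transcript was spliced. Leaving out 1 animal gave 12 to 24 rises and 40 to 146 falls. Within the interquartile range of level, 7 rises and 22 falls were called at 48 h, 9 and 64 at 96 h, and 1 and 1 between the times. Between the times, 4 rises and 2 falls became 20 and 14 with exactTest, 32 and 22 with DESeq2, 2 and 1 with the compared groups alone, 1 and 1 with age as a covariate, 2 and 1 with age class as a block, 1 and 1 with at least 3 exons, 2 and 1 where every transcript was spliced, and 0 and 0 at an adjusted p of at most 0.01 and without both animals over 20 months. Falls were 1 with a filter of 50 counts in 3 libraries and 1 with voom. Leaving out 1 animal gave 0 to 6 rises and 0 to 2 falls. Upper-quartile scaling shifted the median of all tested loci (log2) to -0.20 at 48 h and -0.16 at 96 h. The cause of these changes was not tested, apart from the fewer loci or animals that some settings leave.

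The share of counts was 1.84% in vehicle with TMM-scaled library sizes, and 0.823, 0.617 and 0.651% in vehicle, 48 h and 96 h without the 10 strongest loci, and 1.06, 0.820 and 0.861% without the strongest. Median CPM per kb was 0.714 by the longest transcript and 0.711 where every transcript was spliced. Median length was 3185 bases by the longest transcript, 4090 with at least 3 exons and 2662 where every transcript was spliced. For windows of 1, 10 and 50 kb, the divergent share was 12.5, 18.4 and 32.1%, the downstream share 3.15, 9.61 and 16.4%, the upstream share 2.26, 5.74 and 7.75%, the convergent share 0.969, 3.07 and 3.63%, and the intergenic share 69.3, 51.4 and 28.3%. With at least 3 exons the antisense, within-span, divergent, downstream and intergenic shares were 4.45, 2.04, 11.3, 5.19 and 71.2%. Where every transcript was spliced the divergent, downstream and upstream shares were 11.6, 10.3 and 5.43%. Against named loci of the count table alone, divergent and intergenic shares were 13.4 and 62.8%. The Pearson r of divergent pairs was 0.37 at 48 h and 0.23 at 96 h with a 50 kb window. With both loci at a mean log2 CPM of at least 1, it was 0.49 for divergent pairs at 96 h, -0.089 for downstream pairs at 48 h and 0.025 at 96 h, 0.92 for within-span pairs at 48 h and 0.23 for antisense pairs at 96 h. Without both animals over 20 months r was 0.47 at 48 h and 0.23 at 96 h for antisense pairs, 0.43 and 0.35 for downstream pairs and 0.78 and 0.74 for within-span pairs. Without the LMLN pair the downstream values were 0.43 and 0.35, and without both pairs at LOC100428378 the within-span value at 48 h was 0.49.

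Pair-removal, animals over 20 months for shares and pairs, and level-matched counts were alternatives chosen after seeing the data. Low counts limit most of these loci, with a median mean count of 58.2 per library. No paired analysis was run because the labels name no pairs of animals between the groups. Age class served as a block in its place.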

Other observations

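Some spliced unannotated loci differed several-fold between animals of 1 group. The highest animal exceeded the lowest at least 8-fold within at least 1 group for 82 loci, within at least 2 groups for 38 and within all 3 groups for 15. The fold was chosen after seeing the data, and animals under 0.05 CPM enter the ratio at that value.

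Neighbouring loci shared their animals. On chromosome 6, 5 loci were high in TP09, TP11, TP17 and TP18 and low in the other 6 animals. XLOC_022912 (chr6:162520882-162553638, 2 exons) measured 104, 81.9, 81.7 and 60.5 CPM in those 4 animals and 2.28 to 4.33 CPM in the others. XLOC_023083, XLOC_023084, XLOC_023224 and XLOC_023296, within the following few megabases, measured 5.42 to 7.47, 5.96 to 10.3, 5.92 to 13.7 and 1.27 to 2.71 CPM in the same 4 animals, against 0.289 to 0.438, 0.270 to 0.724, 0.290 to 0.832 and 0 to 0.253 CPM. The named locus that spans a pair of them, LOC100428378, measured 7.56, 78.4 and 67.3 CPM in the vehicle animals, 4.99, 5.52 and 5.99 at 48 h and 5.18, 9.98, 66.7 and 57.1 at 96 h. These animals are from the vehicle and 96 h groups, so the pattern crosses treatment and no 48 h animal was high.

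On chromosome 9, XLOC_033283, XLOC_033285, XLOC_033301, XLOC_033419 and XLOC_033433 lie in a single interval and were high in TP07, TP11, TP15 and TP17. XLOC_033433 (chr9:75780958-75785311, 2 exons) measured 18.6, 2.13, 5.91 and 7.74 CPM there and 0.0722 to 0.421 CPM in the other animals, and XLOC_033301 measured 2.95 to 7.13 against 0.0675 to 0.362 CPM. On chromosome 15, XLOC_052536, XLOC_052546 and XLOC_052549 were high in TP11, TP12 and TP16, 1 animal of each group. XLOC_052549 (chr15:53775038-53918681, 5 exons) measured 15.9, 11.9 and 9.55 CPM there and 0.202 to 2.16 CPM elsewhere. XLOC_018475 on chromosome 5 (chr5:55103831-55135374, 5 exons) ranged from 0.509 to 82.7 CPM over the 10 animals, with low values in TP09, TP10, TP15 and TP18. These sets of animals were read from the values themselves and were not compared with each other by any test.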
